A study of Homo sapiens with 21 samples.

Results

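The genes described here encode the ATP-binding cassette (ABC) family in BT474, a human HER2-amplified breast cancer cell line, before and during treatment with HER2 antibodies and in resistant pools derived from it. They were the rows of the deposited count table whose symbol was ABC, a subfamily letter from A to G and a number, with at least 100 reads summed over 21 libraries. Of 45 such symbols among 37355 genes, 30 met the minimum and 15 did not. ABCG2, with 138 reads, was the lowest inside it and ABCA10, with 47, the highest outside.

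The 7 groups of 3 libraries each were compared by RNA sequencing. The parental cells were untreated, or given trastuzumab at 10 µg/mL for 3 days, or given trastuzumab and pertuzumab at 10 µg/mL each for 3 days. Trastuzumab and pertuzumab are antibodies to different domains of HER2. BT-TR1 and BT-TR2 are BT474 pools resistant to trastuzumab, BT-TPR1 and BT-TPR2 are pools resistant to both antibodies, and all 4 had gone without antibody for 7 days when they were harvested. With 2 pools per class, each class is represented by 2 units, whatever the number of libraries, and all comparisons with untreated cells share the same 3 untreated libraries.

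Most ABC proteins bind and hydrolyse ATP to move a substrate across a membrane, and the family is best known in tumours for drug efflux. The A and G subfamilies handle mainly sterols and phospholipids, the C subfamily organic anions, drug conjugates and cyclic nucleotides, and the D subfamily fatty acyl-CoA esters and cobalamin. B-subfamily members work in the plasma membrane, mitochondria and lysosomes, while the E and F members have no membrane part and act on ribosomes.

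Library totals ran from 7939270 to 21746391 counts, the lowest being a BT-TR1 library. Values are CPM, counts scaled to the TMM-adjusted library size, listed for replicates 1, 2 and 3 in that order, and log2 fold changes ± standard error from edgeR's quasi-likelihood test, called at a Benjamini-Hochberg adjusted p under 0.05 over 17650 tested genes. Replicate 1 libraries stood apart by base composition: across genes, their deviation from the group mean correlated with transcript GC content at r between 0.314 and 0.627, and in replicates 2 and 3 between -0.537 and 0.0828, a description over genes that are not independent. The 8 luminal breast cancer markers summed to 7579 to 15448 CPM per library, and ERBB2, KRT8, KRT18, KRT19, EPCAM, GATA3, ESR1 and CDH1 were all in the table. The sums were not level across groups. Untreated libraries (10940 to 15448) lay above those given trastuzumab (8880 to 10547), both antibodies (7579 to 10234) and those of BT-TR1 (7850 to 10598). The other pools overlapped the untreated range, and the sums were not tested. Basal markers summed to at most 0.349 CPM, leukocyte markers to at most 0.259, adipocyte markers to at most 1.402, fibroblast markers to 16.4 to 46.4 and endothelial markers to 5.39 to 18.4 CPM. Of the last, PECAM1 averaged 0 CPM in untreated cells and at most 0.2004 in any group, while CDH5 averaged 0.121 untreated and 2.595 for BT-TR1. VWF, which made up most of that sum, went the other way, from 12.7 CPM untreated to 3.89 for BT-TR1, and the part of these genes in the results was not tested. Whether replicates came from separate cultures is not stated in the labels, so a p here reflects only the spread of the libraries at hand, and in bulk RNA fewer cells of a kind and less RNA per cell cannot be told apart.

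For 4 of the 22 members in the RefSeq promoter table, chosen after their values were seen to show different patterns of change, the 250 bases before the transcription start are shown, 5′ to 3′ on the gene's own strand, from GRCh38.p14. ABCA1 and ABCA5 rose with antibody, ABCC4 rose with both antibodies and in 3 pools, and ABCC2 separated the pool classes. The windows are chr9:104928156-104928405 (minus strand) for ABCA1, chr17:69327134-69327383 (minus strand) for ABCA5, chr13:95301452-95301701 (minus strand) for ABCC4 and chr10:99782390-99782639 (plus strand) for ABCC2. GENCODE 29 places the outermost start of ABCA1, ABCA5 and ABCC4 inside these windows. Capitals mark matches to the motifs described after the sequences.
ABCA1: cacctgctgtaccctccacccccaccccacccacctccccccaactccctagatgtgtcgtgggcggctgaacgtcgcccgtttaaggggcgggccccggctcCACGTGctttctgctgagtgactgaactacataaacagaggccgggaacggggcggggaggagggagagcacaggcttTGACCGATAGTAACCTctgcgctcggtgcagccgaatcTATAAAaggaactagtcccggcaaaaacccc
ABCA5: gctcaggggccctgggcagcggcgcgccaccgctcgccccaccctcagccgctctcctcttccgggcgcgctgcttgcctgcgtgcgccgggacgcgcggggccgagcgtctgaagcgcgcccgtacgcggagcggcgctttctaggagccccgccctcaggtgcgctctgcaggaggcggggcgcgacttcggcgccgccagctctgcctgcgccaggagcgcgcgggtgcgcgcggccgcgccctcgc
ABCC4: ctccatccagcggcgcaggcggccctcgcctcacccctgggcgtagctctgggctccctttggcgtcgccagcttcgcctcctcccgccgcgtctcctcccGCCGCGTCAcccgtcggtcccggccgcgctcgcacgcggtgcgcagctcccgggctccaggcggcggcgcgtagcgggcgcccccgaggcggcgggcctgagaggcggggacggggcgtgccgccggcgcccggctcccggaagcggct
ABCC2: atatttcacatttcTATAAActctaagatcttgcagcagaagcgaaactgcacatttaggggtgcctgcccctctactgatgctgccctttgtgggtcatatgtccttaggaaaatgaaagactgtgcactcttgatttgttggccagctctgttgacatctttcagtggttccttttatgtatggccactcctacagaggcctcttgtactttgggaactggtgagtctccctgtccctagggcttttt

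In ABCA1 the capitals are an E-box CACGTG starting 147 bases before the start, a near match to the nuclear receptor direct repeat (AGGTCA, any 4 bases, AGGTCA) on the opposite strand 69 bases before it, and a TATA box TATAAA 31 bases before it. The near match, allowing 2 mismatches, was searched for after the sequence had been seen; it occurred in 2.03% of 35116 promoter windows, against 0.0142% for the exact repeat, which no member held. The direct repeat is the element that LXR, the oxysterol receptor, is known to bind. In ABCC4 the capitals are the antioxidant response core TGACNNNGC on the opposite strand, 149 bases before the start. This motif was found in 10.9% of all windows and in 7 of the 35 windows of the 22 members, each in a different member. In ABCC2 they are a TATA box 236 bases before the start, a motif in 10.7% of windows. ABCA5 held none of these, nor the forkhead core GTAAACA (2.98% of windows), which among the members only ABCE1 held. The core GCGTG bound by the aryl hydrocarbon receptor, left in lower case, was in 32.2% of all windows and in 18 of the 35 member windows. Those belonged to 13 of the 22 members, ABCA5 and ABCC4 included. All motifs were searched on both strands in the bases before the start, and a match or its absence describes these letters and not the binding of a factor.

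In untreated cells, per kilobase of exon, the most abundant members were ABCC5 (26.9 CPM per kb), an exporter of cyclic nucleotides and nucleotide analogues, and ABCC3 (26.8), an exporter of bile salts and glucuronides. The spread of their libraries (307.6 ± 13.7 and 258 ± 74.05 CPM, SD) did not separate them per kilobase. ABCC11, the apocrine gland exporter of lipophilic anions, followed at 19.3 CPM per kb, then the ribosome-associated ABCF2 at 18.99 and ABCF3 at 14.6, peroxisomal ABCD3 at 12.02 and the ribosome recycling factor ABCE1 at 10.5. At the bottom lay ABCC1 (0.501), ABCA5 (0.453), ABCA1 (0.121), ABCG2 (0.0816) and ABCB4 (0.0712). ABCB1, the P-glycoprotein of classical multidrug resistance, was not a member: it had 32 reads in all, at most 4 in a library and 0 in 3 libraries. Its values were 0.165, 0.207 and 0.0907 CPM untreated, 0, 0.261 and 0.132 for BT-TR1 and 0, 0.0629 and 0.0641 for BT-TPR1, and no library passed 0.261 CPM.

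**Figure D1:**
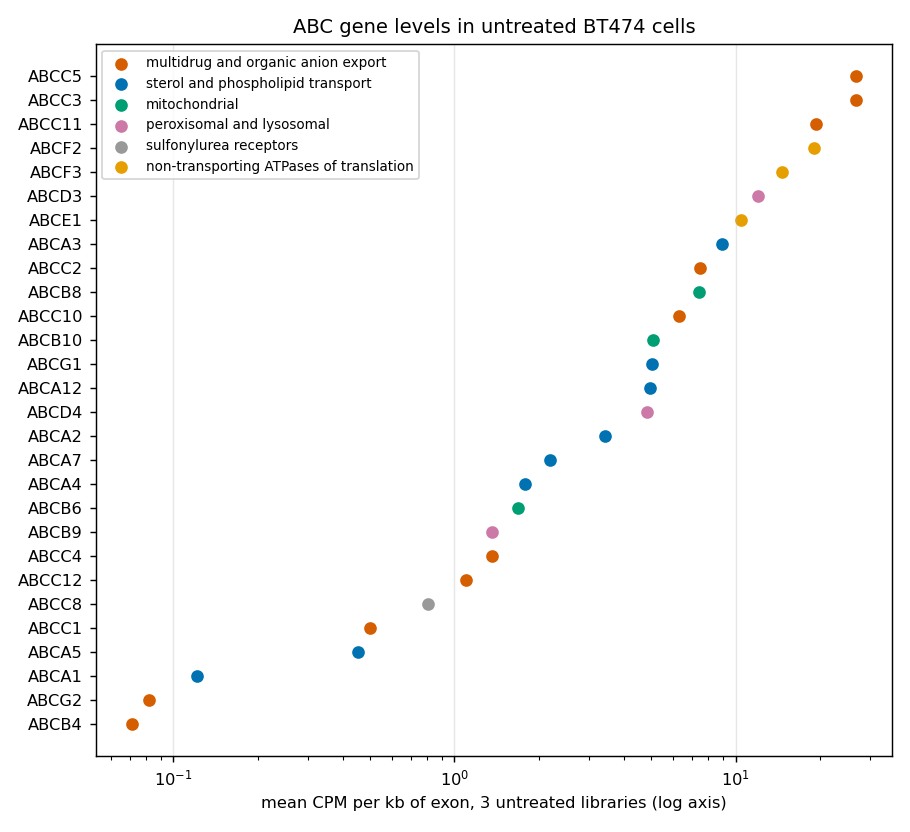
Mean CPM per kilobase of exon (log axis) of 28 of the 30 ABC genes in the 3 untreated libraries, ordered by level and coloured by role. The multidrug and organic anion exporters hold both the highest places (ABCC5 and ABCC3) and the lowest (ABCG2 and ABCB4).

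The other genes under the minimum had between 1 and 47 reads in all. ABCF1, a ribosome-associated protein, had 2 reads; it lies in the major histocompatibility region, where 126 of 170 protein-coding genes were not in the table and 12 had at least 100 reads, so its low count is not read as a low level. Some members share exon bases with other genes or have a pseudogene, and the strandedness of the libraries is not given in the sources used here. Whether reads were shared was not measured. ABCC11 shares exon bases with LONP2 on the opposite strand (59060 reads against 58115) and ABCE1 with OTUD4 (13474 against 25551). The pseudogene ABCF2P1 had 11421 reads against 29395 for ABCF2, so ABCF2, ABCE1 and ABCC11 are uncertain. A further 6 members share exon bases with genes at under 10% of their own reads.

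Of the 29 members tested (ABCG2 was too low), 4 were called with trastuzumab, 2 higher and 2 lower, or 13.8%, against 7.48% of all tested genes (3.71% higher, 3.78% lower). With both antibodies 9 were called, 5 higher and 4 lower (31.0%, against 12.4%, of which 6.39% higher and 6.02% lower). In BT-TR1 16 were called, 2 higher and 14 lower (55.2%, against 43.6%, of which 21.3% higher and 22.3% lower), and in BT-TR2 9, 1 higher and 8 lower (31.0%, against 24.9%, of which 12.7% higher and 12.1% lower). In BT-TPR1 9 were called, 1 higher and 8 lower (31.0%, against 27.3%, of which 12.9% higher and 14.4% lower), and in BT-TPR2 11, 4 higher and 7 lower (37.9%, against 31.6%, of which 15.6% higher and 16% lower). The share called thus lay near the background in BT-TR2, BT-TPR1 and BT-TPR2. Falls outnumbered rises among the members called in every pool, whereas all tested genes split almost evenly. The median member changed by -0.58 for BT-TR1, -0.35 for BT-TR2, -0.51 for BT-TPR1 and -0.40 for BT-TPR2 on the log2 scale, where the median of all genes, after TMM scaling, lay between -0.0098 and -0.0024. It also lay below 0 with trastuzumab (-0.25, all genes -0.016) and with both antibodies (-0.12, all genes -0.0135). In each treatment 18 of the 29 members were below 0, the same number as for BT-TR1. Of the 29, 19 lay above the median GC content of tested genes, described below. With replicate number as a block, the members called numbered 15 under trastuzumab (5 higher, 10 lower, against 26.2% of all genes), 19 for BT-TR2 (4 and 15, 45.8%), 18 for BT-TPR1 (1 and 17, 47.4%) and 22 for BT-TPR2 (6 and 16, 51.1%). Leaving out 1 library moved the count to 2 under trastuzumab (untreated replicate 2 or trastuzumab replicate 1 or 3), to 5 with both antibodies (untreated replicate 3 or dual-treated replicate 2 or 3), to 10 for BT-TR1 (untreated replicate 1) and to 18 for BT-TPR2 (its replicate 1).

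**Figure D2:**
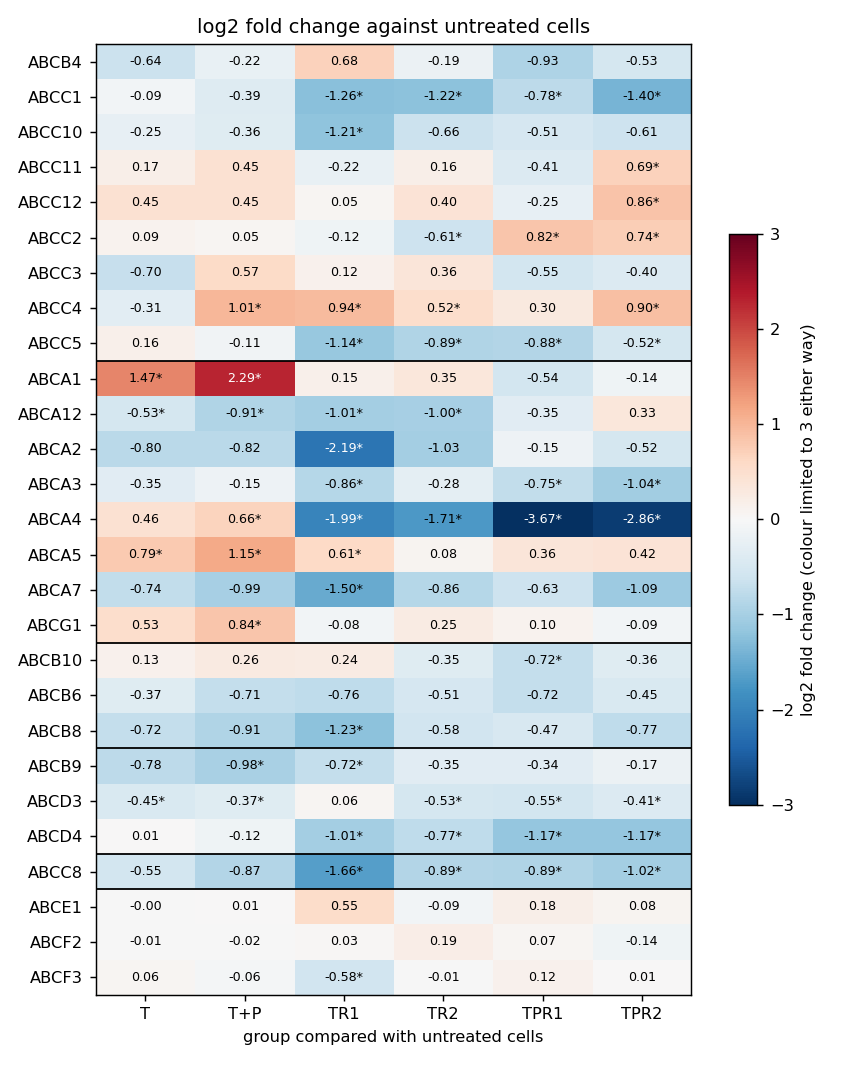
Log2 fold change of 27 of the 29 tested ABC genes against untreated cells, by group (T trastuzumab, T+P both antibodies, TR1 to TPR2 the pools), with horizontal lines between roles; an asterisk marks an adjusted p under 0.05 (edgeR). ABCA1 is highest with antibody (1.47 and 2.29), and ABCA4 is lowest in the pools (-1.71 to -3.67).

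Summed over members, the family stood at 1598 ± 194 CPM (SD, n = 3) in untreated cells and 1231 ± 153 for BT-TPR1, the lowest group, and 1663 ± 213 with both antibodies, the highest. These sums are set largely by ABCC3, ABCC5 and ABCC11 and were not tested. Of the 29 members, 2 (ABCA4 and ABCD3) were called in 5 of the 6 comparisons with untreated cells, 6 in 4, and 5 (ABCB4, ABCB6, ABCC3, ABCE1 and ABCF2) in none. With replicate number as a block, ABCB6 and ABCC3 were called in 4 and ABCE1 and ABCF2 in 1 of the 5 of these comparisons whose numbers paired the libraries, and ABCB4 in 0. How often all tested genes were called was not counted, and the comparisons share the same untreated libraries. These tallies therefore describe the members and are not a result about the family.

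Among the 8 sterol and phospholipid transporters, 4 rose with both antibodies (ABCA1, ABCA4, ABCA5 and ABCG1) and ABCA12 fell, and in BT-TR1 5 fell and 1 rose. Of all tested genes 6.39% were higher and 6.02% lower with both antibodies, and 21.3% and 22.3% in BT-TR1. With GC correction, described below, the BT-TR1 falls of ABCA3 and ABCA7 were not called (-0.11 and -0.34), and that of ABCA2 was -1.10. The largest rise of any member was that of ABCA1 (chr9:104781002-104928237, minus strand), which loads cholesterol and phospholipid onto apolipoprotein A-I. Its values were 1.32, 1.396 and 1.41 CPM untreated, 3.93, 4.01 and 3.53 under trastuzumab and 6.21, 5.54 and 8.52 with both antibodies. In the pools it stood at 1.26, 1.57 and 1.85 CPM for BT-TR1, 1.499, 1.49 and 2.31 for BT-TR2, 0.747, 0.944 and 1.15 for BT-TPR1 and 1.11, 1.16 and 1.504 for BT-TPR2. Every treated library lay above every untreated and every pool library, and no dual-treated library overlapped those given trastuzumab alone. ABCA1 rose by 1.47 ± 0.21, adjusted p = 0.000285 under trastuzumab and by 2.29 ± 0.21, adjusted p = 1.08e-06 with both antibodies, or 2.77-fold and 4.896-fold, and these calls held under every alternative. The step between the treatments was 0.82 ± 0.19, adjusted p = 0.0454; there 3 members were called, all higher (10.3%, against 0.867% of all genes, 0.487% higher and 0.38% lower). In the pools ABCA1 was not called against untreated cells (0.15 and 0.35 in the BT-TR pools, -0.54 and -0.14 in the BT-TPR pools). ABCA1 between the antibody treatments was no longer called with no filter, RLE scaling, scaling by library size alone, replicates 2 and 3 alone, only the groups compared or limma on the deposited values or without trastuzumab replicate 1, 2 or 3 or dual-treated replicate 1 or 3 (adjusted p = 0.0509 to 0.337, spanning 0.000977 to 0.337 over all alternatives).

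**Figure D3:**
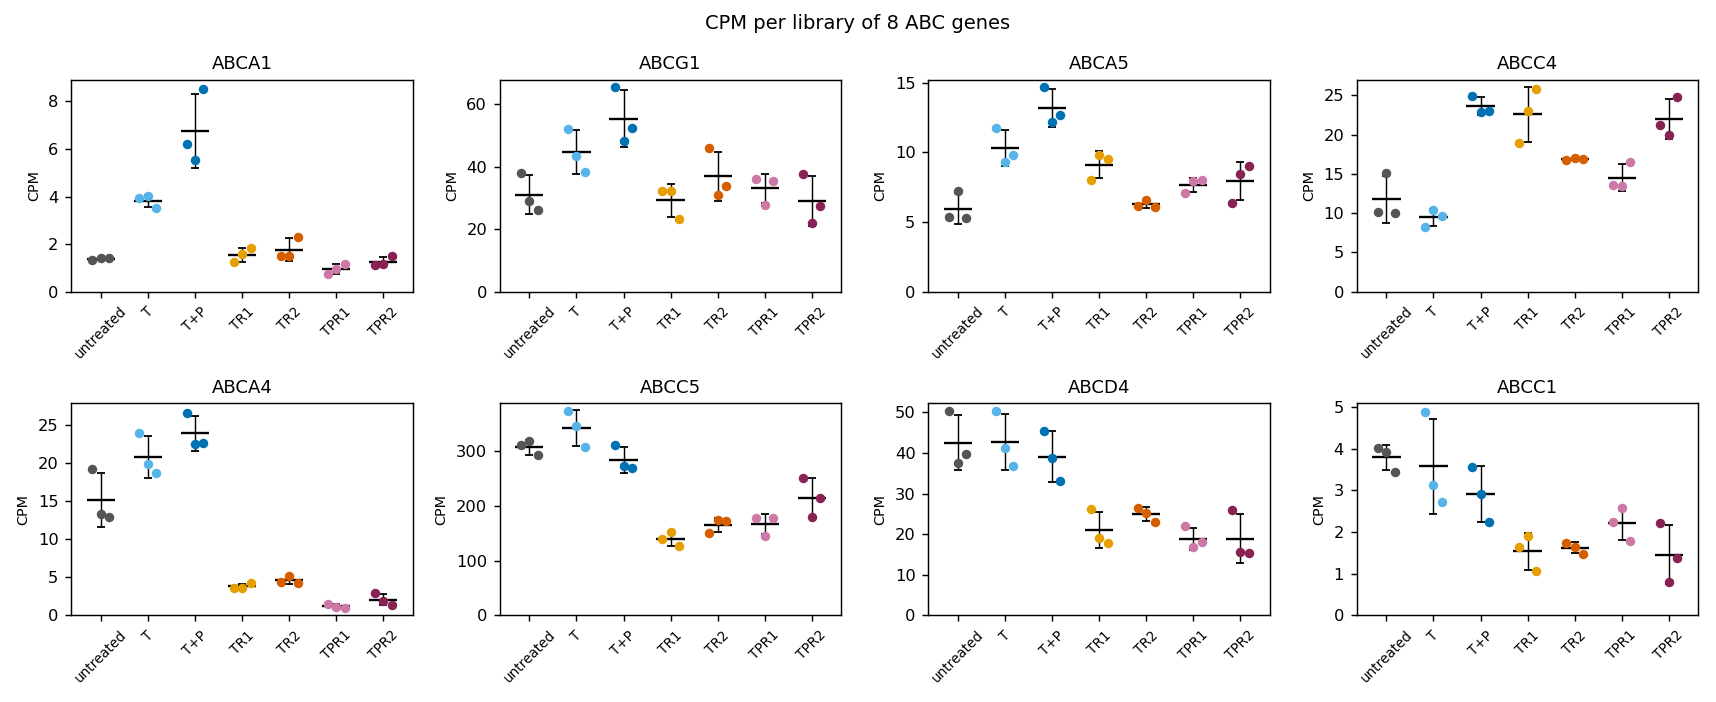
CPM of 8 ABC genes in each library (points), with the mean (bar) and SD (whiskers) of 3 replicates, by group; T is trastuzumab, T+P both antibodies. ABCA1 is high only in the treated groups (3.53 to 8.52 CPM, against 0.747 to 2.31 elsewhere), while ABCA4, ABCC5, ABCD4 and ABCC1 are lower in all 4 pools than in untreated cells.

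ABCG1 (chr21:42199689-42297244, plus strand), which passes cholesterol to HDL particles, stood at 37.9, 28.9 and 25.996 CPM untreated, 52.1, 43.3 and 38.3 under trastuzumab and 65.5, 48.1 and 52.4 with both antibodies. Both treated groups lay above the untreated one, the first narrowly. In the pools its libraries ran from 22.0 to 45.9 CPM and overlapped the untreated ones. It rose by 0.84 ± 0.21, adjusted p = 0.0118 with both antibodies, while trastuzumab alone gave 0.53 ± 0.21, adjusted p = 0.133. ABCA5 (chr17:69244311-69327244, minus strand), a lysosomal and late endosomal member, stood at 5.38, 7.24 and 5.26 CPM untreated, 11.8, 9.33 and 9.799 under trastuzumab and 14.7, 12.2 and 12.7 with both antibodies. Its pool values were 8.01, 9.83 and 9.502 for BT-TR1, 6.18, 6.59 and 6.09 for BT-TR2, 7.07, 7.93 and 8.01 for BT-TPR1 and 6.399, 8.42 and 9.02 for BT-TPR2. The treated libraries were the highest in the series, apart from those of BT-TR1, which overlapped the trastuzumab group. ABCA5 rose by 0.79 ± 0.16, adjusted p = 0.00404 under trastuzumab, 1.15 ± 0.16, adjusted p = 6.82e-05 with both antibodies and 0.61 ± 0.16, adjusted p = 0.00582 for BT-TR1. ABCG1 with both antibodies was no longer called without untreated replicate 3 (adjusted p = 0.057, spanning 6.66e-07 to 0.057 over all alternatives). ABCA5 under trastuzumab was no longer called with only the groups compared (adjusted p = 0.0656, spanning 1.90e-05 to 0.0656 over all alternatives). ABCG1 was also called with replicate number as a block with trastuzumab (0.53, adjusted p = 0.00149, spanning 0.000593 to 0.312). ABCA5 was also called with replicate number as a block in BT-TPR2 (0.42, adjusted p = 0.0232, spanning 0.00433 to 0.204).

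ABCA4 (chr1:93992835-94121132, minus strand), the retinoid and phosphatidylethanolamine flippase known from photoreceptors, showed the largest falls of any member. It stood at 19.3, 13.3 and 12.9 CPM untreated, 23.9, 19.8 and 18.7 under trastuzumab and 26.5, 22.5 and 22.6 with both antibodies. In BT-TR1 it stood at 3.63, 3.65 and 4.22 CPM, for BT-TR2 at 4.38, 5.1999 and 4.23, for BT-TPR1 at 1.49, 1.07 and 0.961 and for BT-TPR2 at 2.91, 1.95 and 1.38. No pool library reached the lowest parental one, and the pools resistant to both antibodies lay below those resistant to trastuzumab. ABCA4 fell in all 4 pools, with log2 fold changes of -1.99 ± 0.22, adjusted p = 1.71e-06 for BT-TR1, -1.71 ± 0.20, adjusted p = 6.28e-06 for BT-TR2, -3.67 ± 0.24, adjusted p = 2.22e-09 for BT-TPR1 and -2.86 ± 0.22, adjusted p = 1.72e-08 for BT-TPR2, and these calls held under every alternative. With both antibodies it moved the other way (0.66 ± 0.19, adjusted p = 0.0279). ABCA4 with both antibodies was no longer called with only the groups compared or without untreated replicate 2 or 3 or dual-treated replicate 1, 2 or 3 (adjusted p = 0.057 to 0.11, spanning 6.02e-05 to 0.11 over all alternatives). ABCA4 was also called with replicate number as a block with trastuzumab (0.47, adjusted p = 0.00549, spanning 0.00463 to 0.351) and in BT-TPR2 against BT-TPR1 (0.82, adjusted p = 0.0246, spanning 0.0246 to 0.373).

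ABCA12 (chr2:214931542-215138428, minus strand), the lipid transporter of epidermal lamellar granules, was lower in treated cells and in the trastuzumab-resistant pools. Its values were 47.6, 49.4 and 43.7 CPM untreated, 30.8, 35.5 and 30.95 under trastuzumab and 30.9, 22.3 and 21.9 with both antibodies. Those of the pools were 19.1, 26.4 and 24.4 for BT-TR1, 23.7, 22.1 and 24.3 for BT-TR2, 37.7, 32.97 and 39.98 for BT-TPR1 and 66.1, 50.6 and 60.3 for BT-TPR2. None of the treated or BT-TR libraries reached an untreated one, and BT-TPR2 held the highest libraries of the series. It changed by -0.53 ± 0.14, adjusted p = 0.0292 under trastuzumab, -0.91 ± 0.14, adjusted p = 0.000338 with both antibodies, -1.01 ± 0.15, adjusted p = 4.46e-05 for BT-TR1 and -1.004 ± 0.15, adjusted p = 5.97e-05 for BT-TR2, and its values in BT-TPR1 and BT-TPR2 were -0.35 ± 0.14 and 0.33 ± 0.14, neither called. ABCA12 under trastuzumab was no longer called with only the groups compared or without untreated replicate 1 or 2 or trastuzumab replicate 1 or 3 (adjusted p = 0.0639 to 0.112, spanning 0.00117 to 0.112 over all alternatives). ABCA12 was also called with replicate number as a block in BT-TPR1 (-0.35, adjusted p = 0.0247, spanning 0.0157 to 0.272) and in BT-TPR2 (0.33, adjusted p = 0.0288, spanning 0.0256 to 0.23).

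ABCA2 (chr9:137007227-137028922, minus strand), an endolysosomal sterol and sphingolipid transporter, stood at 59.01, 32.4 and 26.7 CPM untreated, 25.7, 24.2 and 17.8 under trastuzumab, 27.8, 23.03 and 16.01 with both antibodies and 11.3, 8.87 and 5.15 for BT-TR1. In BT-TR2 it stood at 27.2, 16.3 and 14.2, for BT-TPR1 at 55.4, 22.9 and 27.7 and for BT-TPR2 at 46.7, 20.2 and 15.2 CPM. Replicate 1 was the highest library in every group. It fell in BT-TR1 (-2.19 ± 0.45, adjusted p = 0.000912), where every library lay below every library of the other groups. The trastuzumab libraries also all lay below the untreated ones (-0.80, not called as tested). ABCA3 (chr16:2275881-2340746, minus strand), the surfactant phospholipid transporter, stood at 93.7, 55.3 and 60.98 CPM untreated, 59.8, 53.95 and 51.2 under trastuzumab and 75.4, 65.001 and 48.9 with both antibodies. In BT-TR1 it stood at 45.2, 42.3 and 27.2, for BT-TR2 at 71.4, 42.8 and 58.6, for BT-TPR1 at 51.8, 33.9 and 39.3 and for BT-TPR2 at 49.4, 26.3 and 26.2 CPM. The libraries of BT-TR1 and both BT-TPR pools lay below the untreated range, and those of BT-TR2 overlapped it. ABCA3 fell in BT-TR1 (-0.86 ± 0.27, adjusted p = 0.0152), BT-TPR1 (-0.75 ± 0.27, adjusted p = 0.0447) and BT-TPR2 (-1.04 ± 0.27, adjusted p = 0.00646). ABCA3 for BT-TR1 was no longer called with GC correction or GC correction with the block or without untreated replicate 1 or BT-TR1 replicate 3 (adjusted p = 0.0924 to 0.464, spanning 4.12e-07 to 0.464 over all alternatives). ABCA3 for BT-TPR1 was no longer called with scaling by library size alone or without untreated replicate 1 or BT-TPR1 replicate 2 or 3 (adjusted p = 0.0677 to 0.247, spanning 4.19e-05 to 0.247 over all alternatives). ABCA2 was also called with replicate number as a block with trastuzumab (-0.72, adjusted p = 0.00215, spanning 0.000211 to 0.668), in BT-TR2 (-1.01, adjusted p = 3.42e-05, spanning 9.56e-08 to 0.329) and in BT-TPR2 (-0.57, adjusted p = 0.00511, spanning 0.00511 to 0.902).

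ABCA7 (chr19:1040101-1065572, plus strand), a phospholipid transporter related to ABCA1, stood at 25.2, 16.2 and 13.5 CPM untreated, 14.02, 10.6 and 8.24 under trastuzumab, 11.9, 8.95 and 6.86 with both antibodies and 9.05, 6.44 and 3.299 for BT-TR1. In BT-TR2 it stood at 13.7, 8.96 and 7.57, for BT-TPR1 at 18.6, 7.802 and 8.91 and for BT-TPR2 at 15.1, 5.63 and 5.14 CPM, and here too replicate 1 was the highest of each group. It fell in BT-TR1 (-1.50 ± 0.44, adjusted p = 0.01), whose libraries lay below the untreated ones. The dual-treated libraries also all lay below the untreated ones (-0.99, not called as tested, adjusted p spanning 2.37e-05 to 0.374 over all alternatives). ABCA7 for BT-TR1 was no longer called with GC correction or without untreated replicate 1 or BT-TR1 replicate 3 (adjusted p = 0.0563 to 0.171, spanning 4.15e-12 to 0.171 over all alternatives). ABCA7 was also called with replicate number as a block with trastuzumab (-0.73, adjusted p = 0.00114, spanning 0.00114 to 0.63), in BT-TR2 (-0.86, adjusted p = 0.000101, spanning 0.000101 to 0.404), in BT-TPR1 (-0.67, adjusted p = 0.00108, spanning 0.00108 to 0.661) and in BT-TPR2 (-1.16, adjusted p = 2.00e-06, spanning 8.47e-07 to 0.212).

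Of the 9 tested multidrug and organic anion exporters, edgeR called none with trastuzumab (2 had an unadjusted p under 0.05, DESeq2 called 1 and limma 0). With both antibodies it called 1, ABCC4. The changes with trastuzumab ran from -0.70 to 0.45. Of all tested genes 7.48% and 12.4% were called in these treatments, so counts from 9 exporters cannot set them apart from other genes. BT-TR1 had 1 exporter higher and 3 lower, BT-TR2 1 and 3, BT-TPR1 1 and 2, BT-TPR2 4 and 2. The shares of all genes called in these pools were 43.6%, 24.9%, 27.3% and 31.6%, in that order. ABCC4 (chr13:95019829-95301475, minus strand) exports cyclic nucleotides, prostaglandins and nucleotide analogues. It stood at 10.1, 15.2 and 9.98 CPM untreated, 8.24, 10.5 and 9.704 under trastuzumab and 24.95, 22.8 and 23.1 with both antibodies. In the pools it stood at 18.9, 23.1 and 25.9 CPM for BT-TR1, 16.7, 16.99 and 16.9 for BT-TR2, 13.6, 13.4 and 16.5 for BT-TPR1 and 21.2, 19.9 and 24.8 for BT-TPR2. The dual-treated, BT-TR1, BT-TR2 and BT-TPR2 libraries all lay above every untreated library, and those given trastuzumab alone overlapped the untreated ones. ABCC4 rose with both antibodies (1.01 ± 0.16, adjusted p = 0.000296), in BT-TR1 (0.94 ± 0.16, adjusted p = 0.0002), in BT-TR2 (0.52 ± 0.16, adjusted p = 0.0212) and in BT-TPR2 (0.90 ± 0.16, adjusted p = 0.000273). The dual treatment exceeded trastuzumab alone by 1.32 ± 0.16, adjusted p = 0.000151, and every alternative kept this call. ABCC4 for BT-TR2 was no longer called with replicates 2 and 3 alone or only the groups compared or without untreated replicate 1 or 3 or BT-TR2 replicate 2 or 3 (adjusted p = 0.0524 to 0.102, spanning 0.0017 to 0.102 over all alternatives).

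ABCC3 also differed between the treatments. Group means were 258 ± 74.05 CPM untreated (SD, n = 3), 159 ± 20.98 under trastuzumab and 382 ± 85.7 with both antibodies, and the dual treatment exceeded trastuzumab alone by 1.27 ± 0.23, adjusted p = 0.00586, with no overlap. Against untreated cells neither change was called (-0.70 ± 0.22 and 0.57 ± 0.22). ABCC3 between the antibody treatments was no longer called without trastuzumab replicate 3 (adjusted p = 0.0552, spanning 4.35e-15 to 0.0552 over all alternatives). ABCC3 was also called with replicate number as a block with trastuzumab (-0.67, adjusted p = 8.89e-05, spanning 5.00e-06 to 0.267), in BT-TR2 (0.38, adjusted p = 0.00655, spanning 0.00126 to 0.529), in BT-TPR1 (-0.53, adjusted p = 0.000365, spanning 0.000168 to 0.416) and in BT-TPR2 (-0.39, adjusted p = 0.00426, spanning 0.00354 to 0.729). In BT-TR1, where ABCC3 gave 0.12 as tested, it was called higher with GC correction (0.48, adjusted p spanning 6.75e-05 to 0.984 over all alternatives).

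ABCC5 and ABCC1 fell in all 4 pools. ABCC5 (chr3:183919934-184018015, minus strand) stood at 311, 319 and 293 CPM untreated, 373, 347 and 309 under trastuzumab and 312, 272 and 270.0 with both antibodies. In BT-TR1 it stood at 139.8, 153 and 127 CPM, for BT-TR2 at 151, 174 and 172, for BT-TPR1 at 179, 145 and 178 and for BT-TPR2 at 251, 179 and 214. Every pool library lay below every parental library, treated or not. Its log2 fold changes were -1.14 ± 0.13, adjusted p = 1.90e-06 for BT-TR1, -0.89 ± 0.12, adjusted p = 3.75e-05 for BT-TR2, -0.88 ± 0.12, adjusted p = 3.97e-05 for BT-TPR1 and -0.52 ± 0.12, adjusted p = 0.0036 for BT-TPR2. ABCC1 (chr16:15949577-16143074, plus strand), the glutathione conjugate and drug exporter MRP1, stood at 4.01, 3.93 and 3.45 CPM untreated, 4.88, 3.13 and 2.73 under trastuzumab and 3.57, 2.92 and 2.24 with both antibodies. Its pool values were 1.63, 1.91 and 1.06 for BT-TR1, 1.74, 1.65 and 1.47 for BT-TR2, 2.24, 2.58 and 1.79 for BT-TPR1 and 2.21, 0.791 and 1.38 for BT-TPR2, all below the untreated range. ABCC1 fell in BT-TR1 (-1.26 ± 0.31, adjusted p = 0.00367), BT-TR2 (-1.22 ± 0.29, adjusted p = 0.00496), BT-TPR1 (-0.78 ± 0.28, adjusted p = 0.0478) and BT-TPR2 (-1.40 ± 0.30, adjusted p = 0.00145); its libraries held 8 to 87 reads. ABCC5 for BT-TPR2 was no longer called with only the groups compared (adjusted p = 0.0503, spanning 7.22e-05 to 0.0503 over all alternatives). ABCC1 for BT-TPR1 was no longer called with scaling by library size alone or without untreated replicate 1, 2 or 3 or BT-TPR1 replicate 1, 2 or 3 (adjusted p = 0.059 to 0.16, spanning 0.00376 to 0.16 over all alternatives). ABCC5 was also called with replicate number as a block in BT-TPR2 against BT-TPR1 (0.36, adjusted p = 0.0276, spanning 0.0276 to 0.445).

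ABCC2 (chr10:99782640-99852594, plus strand), the apical exporter of conjugated organic anions, rose in both BT-TPR pools and fell in BT-TR2. It stood at 59.6, 62.002 and 53.8 CPM untreated, 61.9, 64.1 and 61.1 under trastuzumab, 64.3, 54.4 and 63.2 with both antibodies and 49.8, 60.03 and 51.6 for BT-TR1. In BT-TR2 it stood at 37.3, 38.8 and 38.7 CPM, for BT-TPR1 at 105, 94.6 and 111 and for BT-TPR2 at 109, 81.4 and 103. Every BT-TPR library lay above, and every BT-TR2 library below, every other library. It rose in BT-TPR1 (0.82 ± 0.11, adjusted p = 2.68e-05) and BT-TPR2 (0.74 ± 0.11, adjusted p = 6.10e-05) and fell in BT-TR2 (-0.61 ± 0.11, adjusted p = 0.000635), and these calls held under every alternative, while BT-TR1 gave -0.12 ± 0.11. The mean of the BT-TPR pools exceeded that of the BT-TR pools by 1.15 ± 0.08, adjusted p = 6.13e-09.

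ABCC11 (chr16:48166910-48247568, minus strand) and ABCC12 (chr16:48081006-48156018, minus strand) lie side by side on chromosome 16, 10.89 kb apart, and both rose in BT-TPR2. ABCC11 stood at 153, 133 and 133 CPM untreated, 160.4, 169 and 143 under trastuzumab and 229, 179 and 164 with both antibodies. In BT-TR1 it stood at 133, 120.5 and 105, for BT-TR2 at 158, 149.8 and 162, for BT-TPR1 at 112, 83.2 and 119 and for BT-TPR2 at 272, 188 and 216 CPM. BT-TPR2 lay above and BT-TPR1 below the untreated range. The dual-treated ABCC11 libraries also all lay above that range and overlapped those of BT-TPR2. That change was not called as tested (adjusted p spanning 0.00296 to 0.188 over all alternatives). ABCC11 rose by 0.69 ± 0.15, adjusted p = 0.00218 and ABCC12, whose substrates are little known, by 0.86 ± 0.18, adjusted p = 0.00116, from 9.53 ± 0.345 to 17.3 ± 3.76 CPM (SD, n = 3). BT-TPR2 exceeded BT-TPR1 by 1.10 ± 0.15, adjusted p = 0.000215 in ABCC11 and by 1.11 ± 0.18, adjusted p = 0.000942 in ABCC12, and these 4 calls held under every alternative. LONP2, which shares exon bases with ABCC11, gave 0.04 ± 0.09, adjusted p = 0.773 for BT-TPR2 against untreated cells. ABCC11 was also called with replicate number as a block in BT-TPR1 (-0.41, adjusted p = 0.00424, spanning 0.00413 to 0.24). ABCC12 libraries under trastuzumab (10.9 to 15.9 CPM), with both antibodies (10.95 to 15.9) and of BT-TR2 (12.3 to 12.8) all lay above the untreated range (9.28 to 9.93). Those of BT-TPR1 (6.35 to 9.14) lay below it. None of these changes was called as tested, and with both antibodies adjusted p spanned 0.0168 to 0.277 over all alternatives. ABCC12 was also called with replicate number as a block with trastuzumab (0.44, adjusted p = 0.0218, spanning 0.0218 to 0.352) and in BT-TR2 (0.40, adjusted p = 0.0231, spanning 0.0231 to 0.204).

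**Figure D4:**
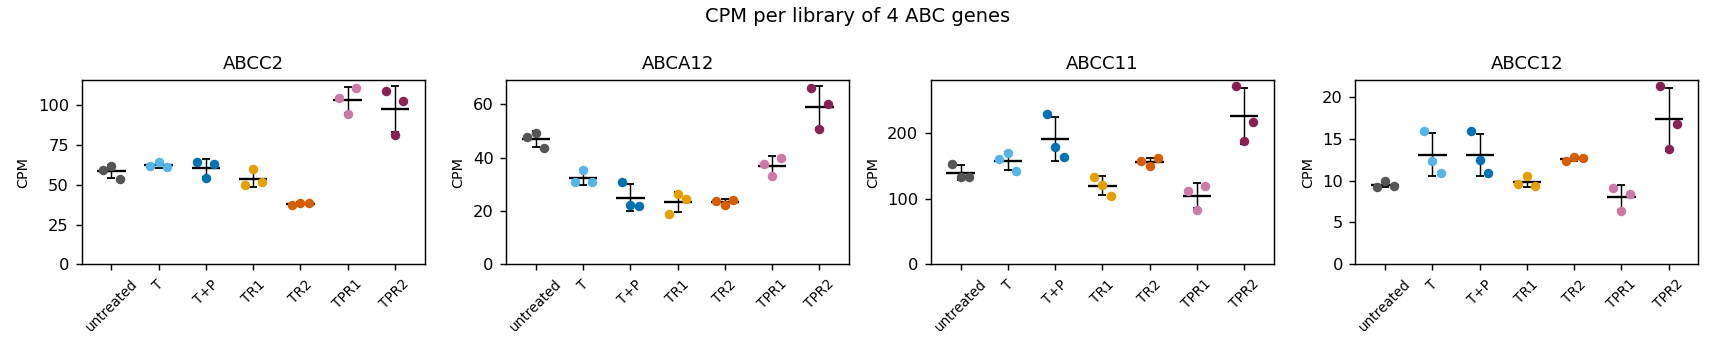
CPM of ABCC2, ABCA12, ABCC11 and ABCC12 in each library (points) with mean (bar) and SD (whiskers), by group. ABCC2 is high in both BT-TPR pools (81.4 to 111 CPM), whereas ABCA12, ABCC11 and ABCC12 are high in BT-TPR2 and not in BT-TPR1.

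ABCC10 (chr6:43427366-43450430, plus strand), an exporter of lipophilic anions and taxanes, stood at 71.8, 37.3 and 43.2 CPM untreated, 49.1, 42.7 and 36.04 under trastuzumab, 52.8, 36.4 and 29.3 with both antibodies and 27.4, 22.97 and 14.8 for BT-TR1. In BT-TR2 it stood at 43.96, 26.8 and 25.9, for BT-TPR1 at 48.003, 26.9 and 31.97 and for BT-TPR2 at 46.4, 27.4 and 25.8 CPM. It fell in BT-TR1 (-1.21 ± 0.32, adjusted p = 0.00542), whose libraries alone lay wholly below the untreated ones. ABCG2 (chr4:88090264-88231322, minus strand), the breast cancer resistance protein, had at most 14 reads in a library and was not tested. Its values were 0.549, 0.414 and 0.272 CPM untreated, 0.224, 0.0977 and 0.188 under trastuzumab and 0.385, 0.297 and 0.292 with both antibodies. Those of the pools were 0.519, 0.522 and 0.132 for BT-TR1, 0.2999, 0.309 and 0.321 for BT-TR2, 0.402, 0.378 and 0.897 for BT-TPR1 and 0.524, 0.512 and 0.501 for BT-TPR2, and no pool was clear of the untreated range. The trastuzumab libraries all lay below that range, but they held only 10 ABCG2 reads together. ABCB4, the phosphatidylcholine flippase of the bile canaliculus, ran from 0.286 CPM for BT-TPR1 to 0.888 for BT-TR1 on average and was called in no comparison with untreated cells. ABCC10 was also called with replicate number as a block in BT-TR2 (-0.65, adjusted p = 0.000133, spanning 4.05e-06 to 0.512), in BT-TPR1 (-0.50, adjusted p = 0.00156, spanning 0.000679 to 0.77) and in BT-TPR2 (-0.61, adjusted p = 0.000179, spanning 6.49e-05 to 0.581).

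Of the 4 peroxisomal and lysosomal members, ABCD4 fell in all 4 pools and ABCD3 in 3. ABCD4 (chr14:74285423-74303056, minus strand), the lysosomal cobalamin transporter, stood at 50.3, 37.5 and 39.8 CPM untreated, 50.3, 41.2 and 36.7 under trastuzumab and 45.5, 38.7 and 33.1 with both antibodies. In BT-TR1 it stood at 26.1, 19.1 and 17.8, for BT-TR2 at 26.3, 25.3 and 23.1, for BT-TPR1 at 21.9, 16.7 and 18.01 and for BT-TPR2 at 25.9, 15.5 and 15.4 CPM. All pool libraries lay below all parental ones. The changes were -1.01 ± 0.20, adjusted p = 0.00079 for BT-TR1, -0.77 ± 0.20, adjusted p = 0.00824 for BT-TR2, -1.17 ± 0.20, adjusted p = 0.0003 for BT-TPR1 and -1.17 ± 0.20, adjusted p = 0.000229 for BT-TPR2, and these calls held under every alternative. ABCD3, the peroxisomal importer of branched-chain acyl-CoA, averaged 91.2 ± 13.4 CPM untreated (SD, n = 3) and was lower with trastuzumab (-0.45 ± 0.11, adjusted p = 0.0172), with both antibodies (-0.37 ± 0.11, adjusted p = 0.0341), in BT-TR2 (-0.53 ± 0.11, adjusted p = 0.00181), in BT-TPR1 (-0.55 ± 0.11, adjusted p = 0.00127) and in BT-TPR2 (-0.41 ± 0.11, adjusted p = 0.00809), but not in BT-TR1 (0.06 ± 0.11), which with GC correction gave -0.22 (adjusted p = 0.0401, spanning 0.0138 to 1). ABCD3 under trastuzumab was no longer called with no filter, scaling by library size alone or only the groups compared or without untreated replicate 2 or trastuzumab replicate 1, 2 or 3 (adjusted p = 0.052 to 0.151, spanning 8.99e-05 to 0.151 over all alternatives). ABCD3 with both antibodies was no longer called with no filter, scaling by library size alone, only the groups compared or limma on the deposited values or without untreated replicate 2 or 3 or dual-treated replicate 1, 2 or 3 (adjusted p = 0.054 to 0.211, spanning 0.000197 to 0.211 over all alternatives). ABCD3 for BT-TR2 was no longer called with only the groups compared (adjusted p = 0.0532, spanning 4.85e-06 to 0.0532 over all alternatives). ABCD3 for BT-TPR2 was no longer called with scaling by library size alone or only the groups compared or without untreated replicate 2 (adjusted p = 0.085 to 0.0946, spanning 4.57e-05 to 0.0946 over all alternatives).

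ABCB9, the lysosomal peptide transporter, fell with both antibodies (-0.98 ± 0.28, adjusted p = 0.0263) and in BT-TR1 (-0.72 ± 0.28, adjusted p = 0.0476). Its group means were 18.1 ± 5.76 CPM untreated (SD, n = 3), 9.17 ± 1.83 with both antibodies and 10.9 ± 0.958 for BT-TR1. With GC correction, ABCB9 for BT-TR1 turned to 0.34 and was called higher. ABCB9 with both antibodies was no longer called without untreated replicate 1 or dual-treated replicate 2 or 3 (adjusted p = 0.0698 to 0.14, spanning 4.30e-06 to 0.14 over all alternatives). ABCB9 for BT-TR1 was no longer called without untreated replicate 1 or BT-TR1 replicate 1, 2 or 3 (adjusted p = 0.0731 to 0.292, spanning 9.84e-05 to 0.292 over all alternatives). ABCB9 was also called with replicate number as a block with trastuzumab (-0.76, adjusted p = 0.00011, spanning 0.00011 to 0.341), in BT-TR2 (-0.34, adjusted p = 0.0272, spanning 0.0272 to 0.925) and in BT-TPR1 (-0.34, adjusted p = 0.0276, spanning 0.0276 to 0.957).

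Among the 4 mitochondrial members, ABCB8 (chr7:151028422-151047782, plus strand), which takes part in mitochondrial potassium and iron handling, fell in BT-TR1. It stood at 95.8, 55.3 and 56.4 CPM untreated, 51.4, 40.3 and 33.9 under trastuzumab, 47.9, 36.3 and 25.99 with both antibodies and 37.7, 30.6 and 19.1 for BT-TR1. In BT-TR2 it stood at 64.1, 36.5 and 38.5, for BT-TPR1 at 70.2, 38.4 and 40.8 and for BT-TPR2 at 60.97, 31.1 and 29.7 CPM. Replicate 1 was highest in every group, and the BT-TR1 libraries lay below the untreated ones (-1.23 ± 0.34, adjusted p = 0.00768). The libraries of both treated groups also all lay below the untreated ones, though neither change was called as tested. With both antibodies the change was -0.91 (adjusted p spanning 2.00e-07 to 0.314 over all alternatives). ABCB10, needed for heme synthesis in erythroid cells, fell in BT-TPR1 (-0.72 ± 0.15, adjusted p = 0.00201), from 21.7 ± 3.41 to 13.2 ± 0.686 CPM (SD, n = 3), under every alternative. ABCB6, a porphyrin transporter, ran from 5.17 to 8.804 CPM in the group means and was called in none of the 6 comparisons. ABCB8 for BT-TR1 was no longer called without untreated replicate 1 (adjusted p = 0.0558, spanning 3.85e-13 to 0.0558 over all alternatives). ABCB8 was also called with replicate number as a block with trastuzumab (-0.70, adjusted p = 0.000114, spanning 7.12e-06 to 0.547), in BT-TR2 (-0.58, adjusted p = 0.000312, spanning 2.42e-05 to 0.638), in BT-TPR1 (-0.48, adjusted p = 0.00167, spanning 0.00128 to 0.809) and in BT-TPR2 (-0.80, adjusted p = 5.67e-06, spanning 8.03e-07 to 0.373). ABCB10 was also called with replicate number as a block in BT-TR2 (-0.35, adjusted p = 0.0187, spanning 0.0066 to 0.342) and in BT-TPR2 (-0.35, adjusted p = 0.0155, spanning 0.00693 to 0.317). ABCB6 was also called with replicate number as a block in BT-TR1 (-0.73, adjusted p = 0.00104, spanning 0.00104 to 0.774), in BT-TR2 (-0.48, adjusted p = 0.0176, spanning 0.0176 to 0.895), in BT-TPR1 (-0.68, adjusted p = 0.00157, spanning 0.00157 to 0.554) and in BT-TPR2 (-0.43, adjusted p = 0.0267, spanning 0.0267 to 0.986).

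ABCC8 (chr11:17392498-17476879, minus strand), the sulfonylurea receptor that regulates ATP-sensitive potassium channels, fell in all 4 pools. It stood at 14.3, 7.602 and 8.62 CPM untreated, 8.75, 6.597 and 5.51 under trastuzumab and 6.87, 5.49 and 4.33 with both antibodies. Its pool values were 4.08, 3.31 and 1.98 for BT-TR1, 7.44, 4.17 and 4.87 for BT-TR2, 6.73, 4.66 and 4.998 for BT-TPR1 and 6.86, 3.396 and 4.83 for BT-TPR2, each below the untreated range. The changes were -1.66 ± 0.33, adjusted p = 0.00072 for BT-TR1, -0.89 ± 0.30, adjusted p = 0.0373 for BT-TR2, -0.89 ± 0.30, adjusted p = 0.0341 for BT-TPR1 and -1.02 ± 0.30, adjusted p = 0.0153 for BT-TPR2. The dual-treated libraries also all lay below the untreated range (-0.87, not called as tested, adjusted p spanning 3.43e-05 to 0.292 over all alternatives). KCNJ11, the pore subunit that ABCC8 binds, changed by -1.78 ± 0.33, adjusted p = 0.000385 for BT-TR1 and -1.40 ± 0.31, adjusted p = 0.00213 for BT-TPR2, and gave -0.63 for BT-TR2 and -0.75 for BT-TPR1, neither called. ABCC8 for BT-TR2 was no longer called with only the groups compared or without untreated replicate 1 or BT-TR2 replicate 2 or 3 (adjusted p = 0.0702 to 0.2, spanning 4.50e-06 to 0.2 over all alternatives). ABCC8 for BT-TPR1 was no longer called without untreated replicate 1 or BT-TPR1 replicate 2 or 3 (adjusted p = 0.102 to 0.21, spanning 1.78e-05 to 0.21 over all alternatives). ABCC8 for BT-TPR2 was no longer called with only the groups compared or without untreated replicate 1 or BT-TPR2 replicate 2 (adjusted p = 0.0562 to 0.105, spanning 1.36e-06 to 0.105 over all alternatives). ABCC8 was also called with replicate number as a block with trastuzumab (-0.53, adjusted p = 0.00821, spanning 0.00352 to 0.736).

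The members that act in translation had small changes in most groups. ABCE1 (chr4:145097932-145129179, plus strand), which splits ribosomes after termination, stood at 44.996, 82.8 and 69.6 CPM untreated, 56.9, 65.04 and 75.4 under trastuzumab and 51.4, 68.8 and 79.1 with both antibodies. It stood at 78.4, 96.7 and 114 for BT-TR1, 48.999, 67.6 and 68.8 for BT-TR2, 59.8, 83.3 and 81.3 for BT-TPR1 and 51.4, 77.7 and 79.9 for BT-TPR2. Replicate 1 was the lowest of each group, and the BT-TR1 value was 0.55 ± 0.23, adjusted p = 0.058. ABCF2 changed by -0.14 to 0.19 and was not called in the 6 comparisons. ABCF3, a relative of the yeast activator of the kinase Gcn2, fell in BT-TR1 (-0.58 ± 0.17, adjusted p = 0.0103). ABCF3 for BT-TR1 was no longer called with GC correction or without untreated replicate 1 or BT-TR1 replicate 2 or 3 (adjusted p = 0.0504 to 0.0792, spanning 8.96e-06 to 0.0792 over all alternatives). ABCE1 was also called with replicate number as a block in BT-TR1 (0.57, adjusted p = 1.86e-05, spanning 1.86e-05 to 0.243). ABCF2 was also called with replicate number as a block in BT-TR2 (0.19, adjusted p = 0.0443, spanning 0.0443 to 0.55).

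Base composition moved with the falls in BT-TR1. The median GC content of the longest transcript was 47.596% over tested genes, and 19 of the 29 members lay above it. Of those 19, 13 were lower and called in BT-TR1 and 0 higher, whereas of the other 10, 1 was lower and 2 were higher. Of all tested genes above the median 36.2% were lower and 9.94% higher, and of those at or below it 8.5% were lower and 32.7% higher. After each library was corrected for GC content, 8 of the 19 were lower and 2 higher, and of the 10, 2 were lower and 2 higher. The corrected shares of all tested genes were 20% lower and 20% higher above the median, and 15.2% lower and 23.2% higher at or below it. The 2 higher members above the median were ABCB9, which turned from -0.72 to 0.34, and ABCC3, which went from 0.12 to 0.48. Among others, the correction ended the BT-TR1 calls of ABCA3, ABCA7 and ABCF3, whereas ABCA2, ABCA4, ABCB8, ABCC1, ABCC10, ABCC5, ABCC8, ABCD4 and ABCA12 stayed lower and called. Several of these falls were smaller after correction, at -1.10 for ABCA2, -0.49 for ABCB8, -0.61 for ABCC10, -1.24 for ABCC8 and -1.001 for ABCC1, against -2.19, -1.23, -1.21, -1.66 and -1.26 as tested. The part of GC content in these changes was not tested beyond this correction.

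**Figure D5:**
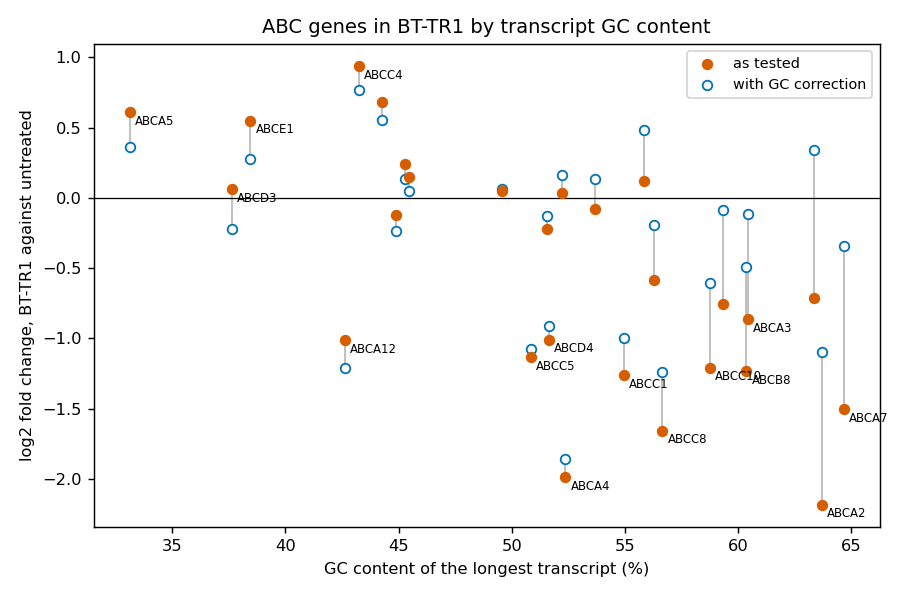
Log2 fold change of 27 of the 29 tested ABC genes in BT-TR1 against untreated cells, plotted over the GC content of the longest transcript, as tested (filled) and after GC correction of each library (open), joined by a grey line. At the right, where GC content is highest, the open points lie higher than the filled ones, as for ABCB9 (-0.72 and 0.34), while ABCA4 and ABCD4 move little.

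Pools of the same class differed from each other in some members. BT-TR2 against BT-TR1 gave 6 called members (20.7%, against 17.7% of all genes, 9.64% higher and 8.09% lower). Of these, ABCF3 was higher in BT-TR2 (0.57 ± 0.17, adjusted p = 0.0286), and ABCD3 (-0.59 ± 0.11, adjusted p = 0.00351), ABCB10 (-0.59 ± 0.15, adjusted p = 0.017), ABCA5 (-0.53 ± 0.16, adjusted p = 0.0328) and ABCC2 (-0.49 ± 0.11, adjusted p = 0.00973) lower. This balance was not stable: 11 were higher and 7 lower with replicate number as a block, 9 and 7 with replicates 2 and 3 alone, 9 and 4 without a filter and 3 and 2 with scaling by library size alone. Without BT-TR1 replicate 2 or BT-TR2 replicate 1 the count was 1, and without BT-TR1 replicate 3 it was 2. BT-TPR2 against BT-TPR1 gave 4, all higher in BT-TPR2 (13.8%, against 3.45%, 1.64% higher and 1.81% lower): ABCC11 and ABCC12, given above, ABCA12 (0.68 ± 0.14, adjusted p = 0.00886) and ABCC4 (0.60 ± 0.16, adjusted p = 0.0386). Without BT-TPR1 replicate 2 the count was 2. ABCF3 for BT-TR2 against BT-TR1 was no longer called with GC correction, GC correction with the block or only the groups compared or without BT-TR1 replicate 2 or 3 or BT-TR2 replicate 1 (adjusted p = 0.0534 to 0.181, spanning 3.34e-05 to 0.181 over all alternatives). ABCB10 for BT-TR2 against BT-TR1 was no longer called with scaling by library size alone or only the groups compared or without BT-TR1 replicate 2 or 3 or BT-TR2 replicate 1 (adjusted p = 0.0548 to 0.111, spanning 0.000541 to 0.111 over all alternatives). ABCA5 for BT-TR2 against BT-TR1 was no longer called with no filter, scaling by library size alone, GC correction, GC correction with the block or only the groups compared or without BT-TR1 replicate 2 or 3 or BT-TR2 replicate 1 or 3 (adjusted p = 0.0615 to 0.462, spanning 0.01 to 0.462 over all alternatives). ABCC2 for BT-TR2 against BT-TR1 was no longer called without BT-TR1 replicate 2 or BT-TR2 replicate 1 (adjusted p = 0.0565 to 0.0584, spanning 0.000607 to 0.0584 over all alternatives). ABCA12 for BT-TPR2 against BT-TPR1 was no longer called with only the groups compared or without BT-TPR1 replicate 2 (adjusted p = 0.0648 to 0.0652, spanning 0.000294 to 0.0652 over all alternatives). ABCC4 for BT-TPR2 against BT-TPR1 was no longer called with scaling by library size alone, replicates 2 and 3 alone or only the groups compared or without BT-TPR1 replicate 1 or 2 or BT-TPR2 replicate 1, 2 or 3 (adjusted p = 0.0606 to 0.186, spanning 0.0016 to 0.186 over all alternatives). With GC correction ABCB9, not called as tested (0.37), was called at -0.43 (adjusted p = 0.0331, spanning 0.0144 to 0.866).

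Between the classes, 11 members were called (37.9%, against 19.7% of all genes, 8.45% higher and 11.3% lower), a test about these 4 pools. Higher in the BT-TPR pools were ABCC2, given above, ABCA2 (1.27 ± 0.30, adjusted p = 0.00559), ABCA12 (0.999 ± 0.10, adjusted p = 1.02e-06), ABCF3 (0.36 ± 0.12, adjusted p = 0.0399) and ABCC5 (0.31 ± 0.09, adjusted p = 0.0153). Lower were ABCA4 (-1.41 ± 0.17, adjusted p = 8.27e-06), ABCB4 (-0.98 ± 0.26, adjusted p = 0.0133), ABCC3 (-0.71 ± 0.16, adjusted p = 0.00321), ABCA1 (-0.59 ± 0.18, adjusted p = 0.0261), ABCB10 (-0.48 ± 0.11, adjusted p = 0.00379) and ABCD3 (-0.25 ± 0.08, adjusted p = 0.0327). In ABCC2, ABCA12 and ABCA4 no library of one class overlapped the other. Without BT-TR1 replicate 2 the count was 7. ABCF3 in the BT-TPR against the BT-TR pools was no longer called with only the groups compared or without BT-TR1 replicate 2 or 3, BT-TR2 replicate 2 or 3, BT-TPR1 replicate 1 or 3 or BT-TPR2 replicate 1 (adjusted p = 0.0536 to 0.127, spanning 9.30e-05 to 0.127 over all alternatives). ABCC5 in the BT-TPR against the BT-TR pools was no longer called with replicates 2 and 3 alone or without BT-TPR2 replicate 1 (adjusted p = 0.0508 to 0.0838, spanning 0.000594 to 0.0838 over all alternatives). ABCB4 in the BT-TPR against the BT-TR pools was no longer called with no filter or replicates 2 and 3 alone or without BT-TR1 replicate 2 (adjusted p = 0.0617 to 0.0679, spanning 0.00631 to 0.0679 over all alternatives). ABCA1 in the BT-TPR against the BT-TR pools was no longer called with no filter, scaling by library size alone or replicates 2 and 3 alone or without BT-TR1 replicate 2 or 3, BT-TR2 replicate 3, BT-TPR1 replicate 1 or BT-TPR2 replicate 1 or 2 (adjusted p = 0.0504 to 0.0998, spanning 0.0101 to 0.0998 over all alternatives). ABCD3 in the BT-TPR against the BT-TR pools was no longer called with no filter, scaling by library size alone, GC correction or GC correction with the block or without BT-TR1 replicate 2 or 3, BT-TR2 replicate 2 or 3, BT-TPR1 replicate 1 or BT-TPR2 replicate 1 or 2 (adjusted p = 0.0518 to 0.257, spanning 0.00321 to 0.257 over all alternatives).

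Genes of the pathways around these transporters were counted from fixed lists, to be read against all tested genes, of which 3.71% were higher and 3.78% lower with trastuzumab, 6.39% and 6.02% with both antibodies, 21.3% and 22.3% for BT-TR1, 12.7% and 12.1% for BT-TR2, 12.9% and 14.4% for BT-TPR1 and 15.6% and 16% for BT-TPR2. Of 9 tested genes of the LXR axis, which drives ABCA1 and ABCG1, those higher and lower numbered 1 and 1 under trastuzumab, 1 and 1 with both antibodies, 1 and 5 for BT-TR1, 1 and 2 for BT-TR2, 0 and 2 for BT-TPR1 and 1 and 2 for BT-TPR2. Among the genes lower in BT-TR1 were SREBF1 (-1.70 ± 0.39, adjusted p = 0.00223) and RXRA (-1.06 ± 0.22, adjusted p = 0.00113). The list counts and the changes of single listed genes, KCNJ11 included, are given as tested, without GC correction. In BT-TR1 36.2% of all tested genes above the median GC content were lower as tested, and 20% after that correction. Of 10 cholesterol uptake and synthesis genes, the numbers higher and lower were 0 and 7 under trastuzumab, 0 and 8 with both antibodies, 1 and 5 for BT-TR1, 0 and 7 for BT-TR2, 0 and 8 for BT-TPR1 and 0 and 7 for BT-TPR2. CYP51A1, the lanosterol demethylase, was lower in each (-2.30, -2.07, -2.83, -1.61, -1.50 and -2.19). Of 6 heme and iron-sulfur genes, edgeR called none with trastuzumab (3 at an unadjusted p under 0.05, 0 by DESeq2 and 0 by limma), and the numbers elsewhere were 1 and 0 with both antibodies, 5 and 0 for BT-TR1, 3 and 0 for BT-TR2, 3 and 0 for BT-TPR1 and 4 and 1 for BT-TPR2.

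Of 12 tested NRF2 genes, edgeR called none with trastuzumab and none with both antibodies (3 and 2 at an unadjusted p under 0.05, 0 and 1 by DESeq2, 0 and 0 by limma). In the pools the numbers higher and lower were 4 and 3 for BT-TR1, 2 and 1 for BT-TR2, 2 and 1 for BT-TPR1 and 3 and 2 for BT-TPR2. NQO1 rose in BT-TR1 (1.22 ± 0.10, adjusted p = 2.68e-08), while SLC7A11, the cystine carrier, fell in BT-TR2 (-1.34), BT-TPR1 (-1.61) and BT-TPR2 (-1.69). Among the 7 tested xenobiotic receptor genes, those higher and lower were 1 and 0 under trastuzumab, 1 and 0 with both antibodies, 4 and 1 for BT-TR1, 2 and 1 for BT-TR2, 2 and 1 for BT-TPR1 and 4 and 1 for BT-TPR2. CYP1A1, the target of the aryl hydrocarbon receptor, rose with trastuzumab (3.05 ± 0.18, adjusted p = 1.31e-08) and with both antibodies (4.05 ± 0.19, adjusted p = 1.04e-10), and PPARA rose in the pools (2.32, 2.46, 3.13 and 3.03). Of 4 tested uptake carriers of organic anions of the SLCO family, the numbers were 0 and 1 under trastuzumab, 1 and 2 with both antibodies, 0 and 2 for BT-TR1, 0 and 1 for BT-TR2, 0 and 2 for BT-TPR1 and 0 and 1 for BT-TPR2, and SLCO3A1 fell in BT-TR1 (-1.59 ± 0.20, adjusted p = 8.42e-06) and BT-TPR1 (-1.35 ± 0.19, adjusted p = 3.10e-05). CFTR, the family's chloride channel under another symbol, averaged 1.099 CPM untreated and fell in BT-TR1 (-3.10 ± 0.60, adjusted p = 0.000582), BT-TR2 (-1.89 ± 0.45, adjusted p = 0.00447) and BT-TPR1 (-1.92 ± 0.45, adjusted p = 0.00405). Of 7 tested ribosome recycling and GCN2 genes 3 were higher in BT-TR1 and edgeR called none in the other 5 comparisons with untreated cells (0 to 2 at an unadjusted p under 0.05, 0 by DESeq2 and 0 by limma). Of 7 peroxisomal oxidation genes, the numbers higher and lower were 3 and 0 under trastuzumab, 2 and 0 with both antibodies, 2 and 1 for BT-TR1, 2 and 0 for BT-TR2, 2 and 0 for BT-TPR1 and 2 and 2 for BT-TPR2.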

How the data were processed

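RNA from 7 groups of 3 BT474-derived samples was sequenced. Per gene, the authors deposited raw read counts, made with Bowtie2 and featureCounts on hg38 per the submitters' processing notes; versions, annotation, strandedness and strand settings are not given in the sources used here. The authors also deposited log2-like values, which match a variance-stabilizing transformation of DESeq2 named in those notes, used for 1 alternative.

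The counts entered edgeR 4.0.16 (R 4.3.3): filterByExpr by group (minimum count 10, minimum total 15; 17650 of 37355 genes kept), TMM scaling, 1 fit of all 21 libraries with a term per group (14 residual degrees of freedom), and the quasi-likelihood test with p adjusted by Benjamini-Hochberg over all tested genes. Library totals were 7939270 to 21746391 counts, and precision was set by the spread between replicates. Exon lengths, positions and GC content came from GENCODE 29 on hg38, whose ABC identifiers carry the same version as the table's in 29 of 45 cases, and promoters from RefSeq (GRCh38.p14).

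Members, gene lists, motifs and tests were chosen with earlier results of these data known. Members were given by library if called at an absolute log2 fold change of at least 1 and a mean of at least 1 CPM against untreated cells, or if they were ABCB1, ABCC1, ABCG2, ABCC11, ABCA1, ABCG1 or ABCE1. Outside this rule, ABCC2 was given by library, and ABCC2 and ABCC12 were plotted by library, with their values known. ABCB1 was given by library only for untreated cells, BT-TR1 and BT-TPR1, and the pool values of ABCG1 as a range. Values of 2 members are not reported here, though counts include them. Replicate numbers paired the libraries by correlated deviations (every r above 0.1) in 7 of the 10 comparisons, not in both antibodies against untreated cells (lowest r = -0.0106), BT-TR2 against BT-TR1 (0.0732) or the pool classes (-0.0516). Other settings tried were RLE scaling, library size alone, no filter, a strict filter (1 CPM in 3 libraries, total 10), DESeq2 1.42.0, limma 3.58.1 on the deposited values, only the groups compared, a replicate block, replicates 2 and 3 alone, a GC correction (spline with 5 degrees of freedom) alone and with the block, and leaving out each library of the groups compared in turn. A group left with 2 libraries then relied on the spread pooled over all groups.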

Additional observations from a re-analysis of the deposited data

Results flagged for a closer look

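Members whose level differed between pools of the same resistance class, by the test of that difference in edgeR, are listed because their change against untreated cells was not the same in both pools. In BT-TR2 against BT-TR1 these included ABCD3 (-0.59 on the log2 scale), ABCB10 (-0.59), ABCA5 (-0.53), ABCC2 (-0.49) and ABCF3 (0.57). ABCA5 and ABCF3 were not called there after GC correction. In BT-TPR2 against BT-TPR1 they were ABCC12 (1.11), ABCC11 (1.10), ABCA12 (0.68) and ABCC4 (0.60). ABCC11 and ABCC12 kept this call under every alternative.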

How the results depend on the processing

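Of 290 pairs of a tested member and a comparison, 82 were called, and 45 of these stayed called under every alternative. With the replicate block all 82 stayed called, with GC correction 73, and with replicates 2 and 3 alone 76; the block ended no call. Among 3304 alternative values where neither fit made a call, 208 changed sign.

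Counts of members called moved as follows; the shares of all genes called under the same setting, in the same order, stand in parentheses. They rose with replicate block to 15 with trastuzumab, 19 with both antibodies, 19 in BT-TR2, 18 in BT-TPR1, 22 in BT-TPR2, 18 in BT-TR2 against BT-TR1 and 19 between the pool classes (26.2, 32.6, 45.8, 47.4, 51.1, 42.8 and 38.4%). With replicates 2 and 3 alone they were 11, 16, 15, 16, 19 and 16 in the first 6 of these comparisons (14, 22.6, 32.8, 35.8, 44.1 and 30%). With GC correction they were 10, 14, 15, 15 and 18 in the first 5 (16, 21.6, 37.7, 40.3 and 42.6%), and with GC correction and the block 14, 17, 18, 20 and 19, with 8 in BT-TPR2 against BT-TPR1 (28.1, 33.1, 48.8, 51.2, 52.7 and 16%). Without a filter they were 10 with trastuzumab, 14 with both antibodies, 15 in BT-TPR1 and 13 in BT-TR2 against BT-TR1 (4.52, 6.97, 12.9 and 10.6%, of more genes). Fitting only the groups compared gave 1 with trastuzumab, 2 in BT-TR2 against BT-TR1 and 2 in BT-TPR2 against BT-TPR1 (2.27, 8.12 and 1.22%).

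Leaving out 1 library gave 2 to 4 members with trastuzumab, 5 to 9 with both antibodies, 10 to 18 in BT-TR1, 7 to 10 in BT-TR2, 6 to 10 in BT-TPR1, 10 to 18 in BT-TPR2, 1 to 3 between the treatments, 1 to 8 between the BT-TR pools, 2 to 4 between the BT-TPR pools and 7 to 12 between the classes. The value of 1 between the treatments came without trastuzumab replicate 3.

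Of the values given here, 3 reversed, each with GC correction alone and with the block: ABCB9 in BT-TR1 (0.34 and 0.32) and in BT-TR2 against BT-TR1 (-0.43 and -0.42) and ABCD3 in BT-TR1 (-0.22 and -0.22). The cause was not tested. Scaling by library size alone left the median of all genes farthest from 0 in BT-TPR1, at 0.1405 against -0.0027 as tested. Members with few reads, such as ABCG2, ABCB4 and ABCC1, are limited by depth.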
